A study of Mus musculus with 12 samples.

Results

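The RNA polymerases I, II and III and the general factors that bring them to promoters were examined in fetal mouse germ cells and the gonadal soma around them. The members are the genes whose symbol begins with Polr1, Polr2 or Polr3 followed by a letter, or with Gtf2 or Gtf3. They number 50 of the 12845 genes in each deposited table. The rule matches 51 protein-coding symbols of the GENCODE vM21 annotation, and the remaining symbol, Gtf2a1l, was not analysed here. By role, 3 members are specific to polymerase I, 2 are shared by polymerases I and III, 5 are shared by all 3 enzymes, 8 belong to polymerase II and 10 to polymerase III. A further 12 encode TFII factors, 3 the TFII-I family and 7 the TFIII factors.

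The 12 RNA sequencing libraries come from gonads of E13.5 embryos after mating of Oct4GFP males, with the strain given as Oct4GFPxICR in every sample. The Oct4 reporter marks germ cells with green fluorescent protein (GFP), and cell sorting gave GFP-positive primordial germ cells (PGCs), from which eggs or sperm develop, and GFP-negative soma. The 4 groups are female PGC, female soma, male PGC and male soma, with 3 libraries each. Nothing in the labels says whether the libraries of a group came from separate litters or pools, so p-values measure the spread between these libraries, which may be technical. The series concerns hypertranscription, a rise in total transcript output per cell, and spike-in RNA was added according to the number of sorted cells.

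Polymerase I transcribes the large ribosomal RNA precursor, polymerase II transcribes protein-coding genes, and polymerase III transcribes transfer RNA, 5S ribosomal RNA and other small RNAs. Each enzyme has a large catalytic pair of subunits of its own, and a set of smaller subunits is common to all of them. TFIIA, TFIIB, TFIIE, TFIIF and TFIIH position polymerase II at promoters and open the DNA, whereas TFIIIA and TFIIIC do the first recruiting step for polymerase III. Polymerase III also exists in alternative forms that carry either Polr3g or Polr3gl at the same place, and Polr3g is known as the form of pluripotent and proliferating cells.

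Promoter sequences are shown for 4 members on which the results turn. Polr3g and Polr3gl are the alternative polymerase III subunits, and Polr2e and Gtf2b had the largest sex differences. Each is the RefSeq window from 250 bases before to 50 after the annotated start (GRCm38.p6), written on the gene's own strand, with capitals at the motif matches named below. The windows are chr13:81710964-81711263 (minus strand) for Polr3g, chr3:96594132-96594431 (minus strand) for Polr3gl, chr10:80039610-80039909 (minus strand) for Polr2e and chr3:142764997-142765296 (plus strand) for Gtf2b.
Polr3g: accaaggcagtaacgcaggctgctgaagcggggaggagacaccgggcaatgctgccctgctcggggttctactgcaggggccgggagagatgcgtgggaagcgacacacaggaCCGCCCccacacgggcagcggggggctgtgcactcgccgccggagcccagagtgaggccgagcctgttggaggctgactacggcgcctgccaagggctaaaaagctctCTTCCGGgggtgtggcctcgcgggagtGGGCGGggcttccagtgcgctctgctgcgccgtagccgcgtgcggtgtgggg
Polr3gl: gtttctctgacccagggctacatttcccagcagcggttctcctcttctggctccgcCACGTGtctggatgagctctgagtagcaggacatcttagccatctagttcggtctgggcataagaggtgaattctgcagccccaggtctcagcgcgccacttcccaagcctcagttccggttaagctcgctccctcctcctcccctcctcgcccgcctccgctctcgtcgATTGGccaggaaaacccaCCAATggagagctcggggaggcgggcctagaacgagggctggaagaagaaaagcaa
Polr2e: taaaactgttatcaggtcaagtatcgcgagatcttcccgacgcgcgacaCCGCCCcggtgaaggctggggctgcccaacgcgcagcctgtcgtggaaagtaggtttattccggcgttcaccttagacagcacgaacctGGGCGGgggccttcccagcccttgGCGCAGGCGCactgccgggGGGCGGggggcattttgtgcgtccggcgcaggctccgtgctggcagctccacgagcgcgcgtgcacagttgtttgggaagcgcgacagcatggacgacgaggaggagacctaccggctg
Gtf2b: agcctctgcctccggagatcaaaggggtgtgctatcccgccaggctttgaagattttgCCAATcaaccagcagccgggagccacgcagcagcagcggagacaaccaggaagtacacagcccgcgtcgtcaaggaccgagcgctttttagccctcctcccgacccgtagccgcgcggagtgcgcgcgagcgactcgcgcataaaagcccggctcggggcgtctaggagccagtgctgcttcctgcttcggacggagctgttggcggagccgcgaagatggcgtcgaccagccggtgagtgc

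The Polr3g window holds 2 GC boxes (GGGCGG, either strand) and an ETS element (CCGGAAG), and the Polr3gl window holds an E-box (CACGTG) and 2 CCAAT boxes. The windows of Polr2e, with 3 GC boxes and an element of the NRF1 consensus, and of Gtf2b, with 1 CCAAT box, share no motif among the 7 searched on both strands. RefSeq promoters were found for 43 of the 50 members, in 48 windows. The ETS element was present in 35.4% of these windows, 16.8% of the 12536 windows of all tabled genes and 8.86% of all 32851 windows. The E-box was in 25% of the member windows, 9.91% of those of tabled genes and 7.15% of all windows, and the NRF1 element in 20.8%, 9.81% and 4.60%. The GC box was in 58.3%, 63.5% and 35.7%, and the CCAAT box in 27.1%, 37.6% and 37.4%. TATAAA was in 10.4%, 6.82% and 13.6%, and the CRE element TGACGTCA in 4.17%, 2.96% and 1.79%. These matches describe letters in the windows and are not evidence of binding. No searched motif contains another.

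Reads recovered from the deposited values numbered 6454322 to 24791414 per library, with a median of 202 to 894 reads per gene. Levels below are given as CPM, the reads of a gene scaled to a common library size over all tabled genes. Every tabled gene reached at least 5.07 CPM in 3 or more libraries. Members lay above that level in every library, the lowest being Gtf3c6 with 7.16 CPM, so each would have passed from any group. Germ cell markers (8 genes) summed to 3548 to 3830 CPM in female PGCs, against 70.8 to 231 CPM in female soma, and to 5080 to 5199 CPM in male PGCs, against 69.5 to 90.9 CPM in male soma. Of these, Kit averaged 65.1 CPM in female soma and 71.1 CPM in male soma. In female soma replicates 1, 2 and 3, Dazl had 40.5, 98.2 and 5.21 CPM and Ddx4 24.0, 35.6 and 2.16 CPM. In male soma Dazl averaged 2.87 CPM and Ddx4 3.09 CPM. Gonadal soma markers (8 genes) summed to 6.69 to 41.5 CPM in female PGCs, against 1135 to 1796 CPM in female soma, and to 53.7 to 107 CPM in male PGCs, against 2987 to 3126 CPM in male soma. The soma also held blood cell transcripts. Erythroid markers (5 genes) summed to 2.91 to 5.89 CPM in female PGCs, against 17493 to 29387 CPM in female soma, and to 4.30 to 9.82 CPM in male PGCs, against 3358 to 8529 CPM in male soma. Macrophage markers (4 genes) reached 4.03 CPM in female PGCs, against 247 CPM in female soma, and 2.29 CPM in male PGCs, against 102 CPM in male soma. Endothelial markers (4 genes, of which Pecam1 is also a germ cell gene) spanned 73.4 to 128 CPM in female PGCs, 102 to 132 CPM in female soma, 92.5 to 118 CPM in male PGCs and 81.0 to 146 CPM in male soma. These sums mix opposite directions. At equal read depth Pecam1 was higher in PGCs than in soma (log2 difference 1.95 in females and 2.295 in males). Kdr (-4.39 and -4.259), Cdh5 (-2.571 and -2.338) and Tie1 (-1.735 and -1.925) were lower. The sums thus do not show that sorted PGCs and soma held equal endothelial transcripts. In such mixed cells a smaller share of a cell type and less RNA per cell cannot be told apart, and the part of these cell types in the differences below was not tested.

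At equal read depth, PGCs held more transcripts of most polymerase subunits and general factors than soma in both sexes. Of the 50 members, 33 were higher and 11 lower in female PGCs than in female soma, and 39 were higher and 7 lower in male PGCs than in male soma (limma on the log2 values of the read depth normalized table, Benjamini-Hochberg adjusted p under 0.05). Over all genes, 38.7% were called higher and 42.3% lower in the female comparison, and 39.1% higher and 43.7% lower in the male comparison. The median log2 difference of the members was 0.51 in females and 0.83 in males, against -0.049 and -0.061 over all genes. The CPM of PGC and soma libraries did not overlap for 32 members that were higher and 11 that were lower in female PGCs (39.1% and 42.7% of all genes), and for 39 that were higher and 9 that were lower in male PGCs (37.6% and 47.4% of all genes). As the mean of both sexes, 37 members were higher and 8 lower, with a median of 0.71 (all genes: 41.4% higher, 45.3% lower, median -0.044). Subtracting each library's median moved the median of all genes to 0.18 and gave 41 members higher and 7 lower, beside 50.2% and 37.8% of all genes. Under this centring the call of lower in PGCs was lost for Gtf2b, Gtf2h5, Gtf2ird2, Gtf3c2 and Polr2l in females and for Polr2m and Gtf3c1 in males. Read depth values change less than reads do at low levels, so log2 differences of CPM by voom are added for the largest changes.

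Per cell, the rise was larger and covered nearly all members. In the cell number normalized table, 48 members were higher and 1 was lower in female PGCs than in female soma (77.2% and 11.5% of all genes), and 47 were higher and 0 lower in male PGCs than in male soma (64.0% and 19.8% of all genes). As the mean of both sexes 49 members were higher and 1 lower (74.3% and 16.5% of all genes). The median log2 difference of the members was 3.14 in females and 2.60 in males, and that of all genes was 2.36 and 1.42. Centring each library on its median, which removes the shift common to all genes, left 36 members higher and 8 lower in females (44.3% and 36.4% of all genes) and 40 higher and 5 lower in males (46.3% and 37.3% of all genes). Per-cell values of Polr2m, Polr3k, Gtf2ird2 and Gtf3c4 turned negative under centring in both sexes, those of Polr2c, Polr2l, Gtf2b, Gtf2h5, Gtf2i, Gtf3c2 and Gtf3c6 in females, and that of Gtf2a2 in males. Above the median of all genes lay 37 of the 50 members in females and 40 in males. Since every gene of a library shares the same cell number scale, errors are common to all genes and p-values over genes are too small, so per-cell values are given with their SE and read beside the all-gene median. This SE rests on 1 spread for all 4 groups, although the groups differed. For Polr2b the SD per cell was 0.54 in male soma, 0.12 in male PGCs, 0.17 in female PGCs and 0.26 in female soma. Male soma replicate 3 stood apart, with a library median of 5.25 against 4.33 and 4.29 in the other male soma libraries. Without it 48 members were higher in males, with a median of 2.90 beside 1.74 for all genes.

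**Figure D1:**
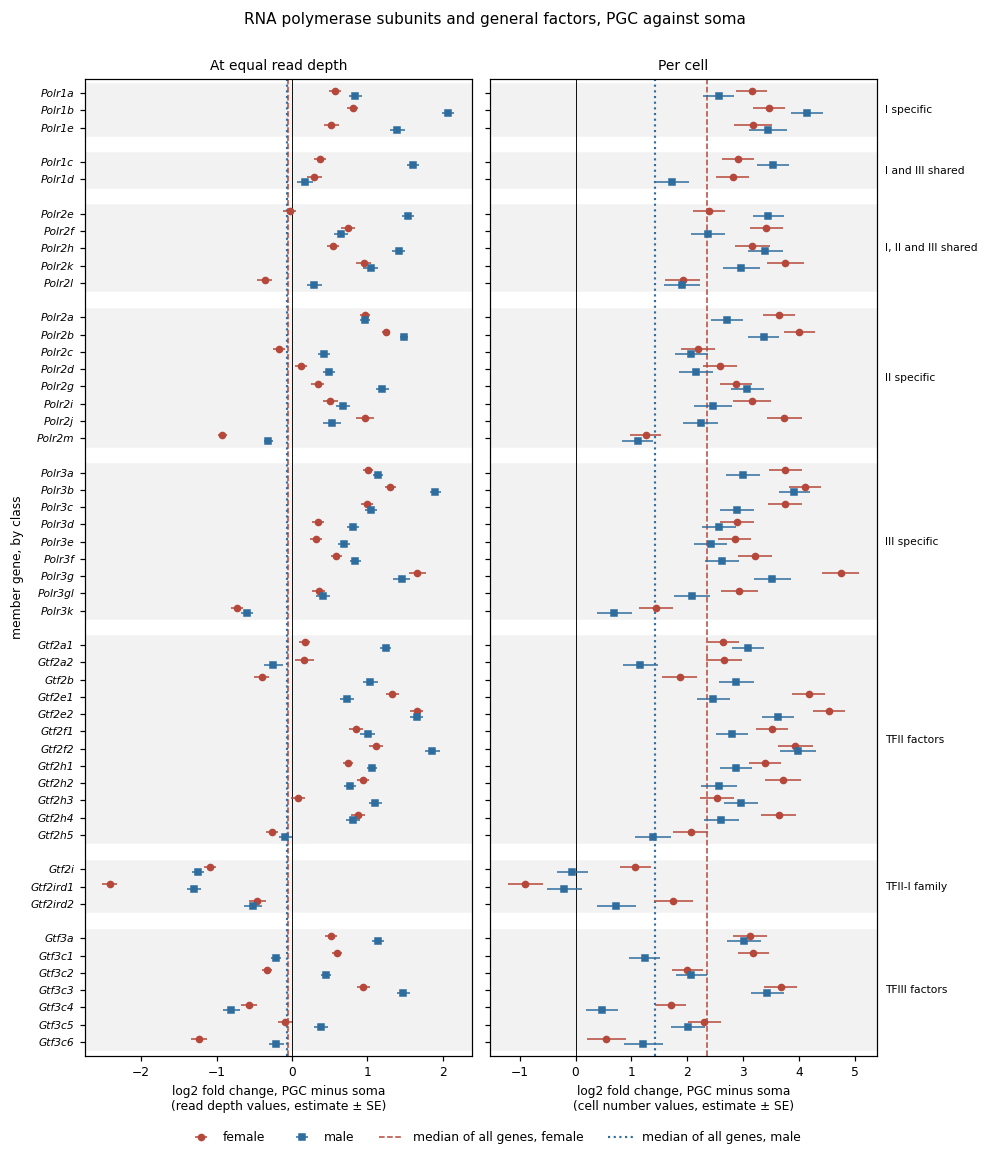
Log2 difference between PGC and soma for 49 members, at equal read depth (left) and per cell (right), in females (circles) and males (squares), with SE bars from the limma fit to 3 libraries per group. Vertical lines mark the median of all 12845 genes (-0.049 in females and -0.061 in males at equal read depth, 2.36 and 1.42 per cell). Most members lie right of these lines, and the TFII-I family lies left of them.

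The members specific to polymerase I were higher in PGCs of both sexes. All 3, Polr1a, Polr1b and Polr1e, were called higher at equal read depth, with a median log2 difference of 0.57 in females and 1.39 in males. Of the polymerase I subunit genes under other symbols, Cd3eap and Twistnb were also called higher in both sexes. Znrd1 was called lower in both, as given below. Polr1a encodes the largest subunit, which forms the active site with the product of Polr1b. Polr1a had 180.5, 169 and 188 CPM in female PGCs, against 107, 94.4 and 124 CPM in female soma. In males it had 255, 212 and 261 CPM in male PGCs, against 128, 122 and 128 CPM in male soma. The PGC libraries lay above the soma libraries in both sexes, by 0.57 ± 0.084 in females and 0.84 ± 0.084 in males (log2 difference ± SE).

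Polr1b (chromosome 2, 129100995 to 129126594 of GRCm38, plus strand) rose in both sexes and more in males (female minus male -1.27 ± 0.11, adjusted p = 7.76e-07, limma). It had 98.3, 98.8 and 119 CPM in female PGCs, against 46.5, 51.1 and 55.9 CPM in female soma. The male values were 262, 235 and 238 CPM in male PGCs, against 40.1, 44.0 and 44.4 CPM in male soma. Its log2 difference was 0.80 ± 0.078 in females (adjusted p = 3.19e-07, limma) and 2.07 ± 0.078 in males (adjusted p = 1.89e-11, limma), or 1.04 and 2.50 in log2 CPM. Per cell it rose by 3.47 ± 0.29 in females and 4.14 ± 0.29 in males. Polr1e, a peripheral subunit that works with the product of Cd3eap in initiation, averaged 27.7 ± 4.12 CPM in female PGCs, against 16.3 ± 0.982 CPM in female soma, and 54.0 ± 2.52 CPM in male PGCs, against 15.2 ± 1.70 CPM in male soma (mean ± SD, n = 3). Summed over the 3 genes, polymerase I subunits took 312 ± 23.7 CPM in female PGCs, against 176 ± 17.3 CPM in female soma, and 542 ± 39.5 CPM in male PGCs, against 184 ± 4.05 CPM in male soma.

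Of the assembly subunits that polymerases I and III have in common, Polr1c rose in both sexes. It had 75.5, 75.9 and 90.8 CPM in female PGCs, against 60.1, 56.9 and 55.4 CPM in female soma. Its male levels were 245, 212 and 203 CPM in male PGCs, against 62.5, 54.9 and 56.7 CPM in male soma. The difference was 0.37 ± 0.079 in females and 1.61 ± 0.079 in males. Its partner Polr1d differed by 0.29 ± 0.10 in females, where it was called higher, and by 0.17 ± 0.10 in males (adjusted p = 0.128, limma), and its PGC and soma libraries overlapped in both sexes.

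Among the 5 subunits shared by all 3 enzymes, 3 were higher and 1 lower in females and all 5 were higher in males. Polr2k, a small zinc-binding subunit, had 55.2, 42.8 and 42.6 CPM in female PGCs, against 19.1, 17.6 and 18.7 CPM in female soma. Male libraries gave 46.7, 41.2 and 43.8 CPM in male PGCs, against 17.5, 18.8 and 15.6 CPM in male soma. The PGC libraries lay above the soma libraries, by 0.95 ± 0.098 in females and 1.05 ± 0.098 in males, and the 2 values differed by -0.095 ± 0.14 (adjusted p = 0.58, limma). Polr2f and Polr2h rose by 0.75 ± 0.093 and 0.54 ± 0.083 in females and by 0.65 ± 0.093 and 1.41 ± 0.083 in males.

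Polr2l, a small subunit common to the 3 enzymes, was called in opposite directions in the sexes (female minus male -0.66 ± 0.15). It had 21.8, 27.1 and 23.4 CPM in female PGCs, against 28.01, 40.8 and 35.0 CPM in female soma. In males it had 47.9, 51.1 and 45.2 CPM in male PGCs, against 41.5, 38.3 and 38.6 CPM in male soma. It was called lower in female PGCs (-0.36 ± 0.10) and higher in male PGCs (0.30 ± 0.10). The female call was lost under median centring (-0.16), and the male call was lost without male PGC replicate 2 (0.26) or male soma replicate 3 (0.28). Per cell it was higher in both sexes, by 1.92 ± 0.32 in females and 1.91 ± 0.32 in males, and the female value turned to -0.28 after centring on library medians. Polr2e is described with the sex differences.

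Most polymerase II subunits rose in PGCs. Of 8 members, 5 were higher and 1 lower in females (median 0.42), and 7 were higher and 1 lower in males (median 0.61). Polr2a encodes the largest subunit, whose C-terminal repeats bind processing factors. It had 876, 893 and 831 CPM in female PGCs, against 357, 353 and 417 CPM in female soma. The male values were 818, 761 and 925 CPM in male PGCs, against 402, 372 and 402 CPM in male soma. PGC libraries held about the same level in both sexes and lay above all soma libraries, and the log2 difference was 0.97 ± 0.070 in females and 0.97 ± 0.070 in males. Corrected for annotated exon length, Polr2a averaged 122.6 ± 4.54 RPKM in female PGCs, against 53.2 ± 5.07 RPKM in female soma, and 118 ± 11.8 RPKM in male PGCs, against 55.5 ± 2.41 RPKM in male soma (mean ± SD, n = 3, with RPKM taken as CPM per kilobase of annotated exon).

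Polr2b encodes the catalytic partner of Polr2a and had the largest difference in this class. It had 339.9, 317 and 327 CPM in female PGCs, against 105, 110.3 and 114 CPM in female soma. Its male levels were 403, 355 and 383 CPM in male PGCs, against 111, 115 and 114 CPM in male soma. The libraries of a group lay close together, and the log2 difference was 1.25 ± 0.056 in females and 1.48 ± 0.056 in males. Per cell Polr2b rose by 4.01 ± 0.28 in females and 3.37 ± 0.28 in males. The smaller subunits Polr2g, Polr2i and Polr2j rose in both sexes, by 0.34 to 0.97 in females and 0.53 to 1.20 in males. Of the exon bases of Polr2i 26.8% overlap Tbcb on the other strand, and of those of Polr2j 15.9% overlap Lrwd1. Polr2d, which forms a stalk with Polr2g, rose in males by 0.49 ± 0.079 and differed by 0.12 ± 0.079 in females without passing the test. Polr2c rose in males by 0.43 ± 0.082, and in females its value was -0.17 ± 0.082 (adjusted p = 0.0664, limma), with 18.1% of its exon bases over Dok4 on the other strand. No label states whether counting used strand, so these 3 genes and the others with an overlap are uncertain. Exon bases of 14 members overlap another gene, 13 of them on the other strand. Among these are Polr2f (9.44% of its exon bases), Polr2h (5.43%), Polr3b (4.69%) and Polr3gl (3.57%).

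Polr2m was called lower in PGCs at equal read depth. It encodes a protein that binds polymerase II and holds back initiation unless Mediator is present. It had 146, 142 and 149 CPM in female PGCs, against 311, 306 and 366 CPM in female soma. Male libraries gave 244, 258 and 233 CPM in male PGCs, against 345, 349.6 and 351 CPM in male soma. PGC libraries lay below the soma libraries of their sex, with log2 differences of -0.92 ± 0.064 in females and -0.31 ± 0.064 in males. Under median centring these were -0.72 and -0.067, and the male call was lost. Per cell it was higher in PGCs by 1.26 ± 0.28 in females and 1.12 ± 0.28 in males, below the all-gene medians of 2.36 and 1.42, and with the cell number values centred on library medians it was called lower in females (-0.94) and not in males (-0.093).

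The members specific to polymerase III were higher in PGCs for 9 of 10 genes in each sex, with Polr3k lower in both. The median log2 difference was 0.56 in females and 0.94 in males. Crcp, a polymerase III subunit gene under another symbol, was called in neither sex (-0.18 ± 0.11 in females and 0.20 ± 0.11 in males). Polr3a, the largest subunit, had 87.3, 87.8 and 95.9 CPM in female PGCs, against 32.9, 37.3 and 37.6 CPM in female soma. In males it had 91.3, 99.96 and 97.6 CPM in male PGCs, against 35.8, 38.4 and 37.0 CPM in male soma. The groups did not overlap, and Polr3a rose by 1.01 ± 0.069 in females and 1.14 ± 0.069 in males.

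Polr3b, which completes the active site with Polr3a, had the largest mean difference among polymerase III subunits at equal read depth (1.60, beside 1.56 for Polr3g), whereas in log2 CPM and per cell that of Polr3g was larger. It had 154, 143 and 157 CPM in female PGCs, against 46.5, 41.9 and 53.5 CPM in female soma. The male values were 239, 231 and 243 CPM in male PGCs, against 44.6, 51.7 and 48.9 CPM in male soma. The difference was 1.30 ± 0.075 in females (adjusted p = 1.60e-09, limma) and 1.90 ± 0.075 in males (adjusted p = 2.87e-11, limma), and per cell 4.11 ± 0.28 and 3.92 ± 0.28. Polr3c and Polr3f, which form an initiation subcomplex with Polr3g or Polr3gl, rose by 0.99 ± 0.079 and 0.59 ± 0.074 in females and by 1.04 ± 0.079 and 0.84 ± 0.074 in males. The dimer of Polr3d and Polr3e, which acts in initiation and termination, rose by 0.35 ± 0.083 and 0.32 ± 0.076 in females and by 0.81 ± 0.083 and 0.69 ± 0.076 in males.

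Polr3k, a small subunit needed for RNA cleavage and termination, fell in both sexes at equal read depth. It had 28.1, 28.7 and 31.2 CPM in female PGCs, against 57.6, 61.8 and 55.1 CPM in female soma. Its male levels were 28.6, 29.6 and 24.0 CPM in male PGCs, against 49.5, 56.7 and 50.6 CPM in male soma. The difference was -0.73 ± 0.084 in females and -0.60 ± 0.084 in males, and PGC libraries held fewer CPM than any soma library. Per cell Polr3k was higher by 1.44 ± 0.31 in females and 0.69 ± 0.31 in males, below the all-gene medians, and it was lower after centring (-0.76 and -0.52). The male per-cell call was lost without male PGC replicate 1 or 2 or male soma replicate 1 or 2 (0.51 to 0.64). Summed over the 10 genes, polymerase III subunits took 658 ± 28.2 CPM in female PGCs, against 353 ± 6.33 CPM in female soma, and 811 ± 8.22 CPM in male PGCs, against 350 ± 10.3 CPM in male soma. The 8 polymerase II genes took 1594 ± 30.8 CPM in female PGCs, against 1000 ± 73.2 CPM in female soma, and 1786 ± 70.4 CPM in male PGCs, against 1041 ± 16.1 CPM in male soma. The polymerases were not tested against each other.

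The balance of reads between the alternative subunits Polr3g and Polr3gl differed between PGC and soma. Polr3g (chromosome 13, 81673843 to 81711013, minus strand) had 59.6, 55.0 and 59.4 CPM in female PGCs, against 12.3, 8.90 and 14.0 CPM in female soma. Male libraries gave 48.8, 52.5 and 53.6 CPM in male PGCs, against 15.6, 12.5 and 13.49 CPM in male soma. Polr3gl (chromosome 3, 96577872 to 96594181, minus strand) had 29.99, 35.5 and 31.3 CPM in female PGCs, against 24.9, 20.1 and 23.1 CPM in female soma. In males it had 40.6, 35.8 and 35.6 CPM in male PGCs, against 28.1, 27.4 and 25.7 CPM in male soma. Both rose in PGCs, Polr3g by 1.66 ± 0.11 in females and 1.46 ± 0.11 in males, and Polr3gl by 0.35 ± 0.092 and 0.41 ± 0.092. In log2 CPM the Polr3g differences were 2.31 and 1.95. Per cell, Polr3g rose by 4.75 ± 0.33 in females, the largest of the 50 members there, and by 3.52 ± 0.33 in males.

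Of the reads of this pair, Polr3g took 66.5%, 60.8% and 65.5% in female PGCs, against 33.1%, 30.7% and 37.7% in female soma, and 54.6%, 59.5% and 60.1% in male PGCs, against 35.8%, 31.2% and 34.4% in male soma. Polr3g held the larger share in the 6 PGC libraries and the smaller share in the 6 soma libraries, and the groups did not overlap. The ratio within a library does not depend on how libraries are scaled. Its log2 value was 1.63 ± 0.11 higher in PGCs (SE over 12 libraries, two-sided exact permutation within sex, p = 0.005, the smallest that 400 arrangements allow), at 1.82 ± 0.17 in females and 1.44 ± 0.14 in males. The female difference exceeded the male one by 0.38 ± 0.22, which did not pass (exact permutation p = 0.155). Per kilobase of annotated exon, Polr3g averaged 14.7 ± 0.656 RPKM and Polr3gl 20.2 ± 1.80 RPKM in female PGCs, against 2.98 ± 0.660 and 14.2 ± 1.52 RPKM in female soma. By this length the larger share of reads was not a larger level. The lengths, 3936 bases for Polr3g and 1597 for Polr3gl, join all annotated exons, and which of these were transcribed here was not tested. In male PGCs they averaged 13.1 ± 0.644 and 23.4 ± 1.78 RPKM, against 3.52 ± 0.409 and 16.9 ± 0.781 RPKM in male soma.

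**Figure D2:**
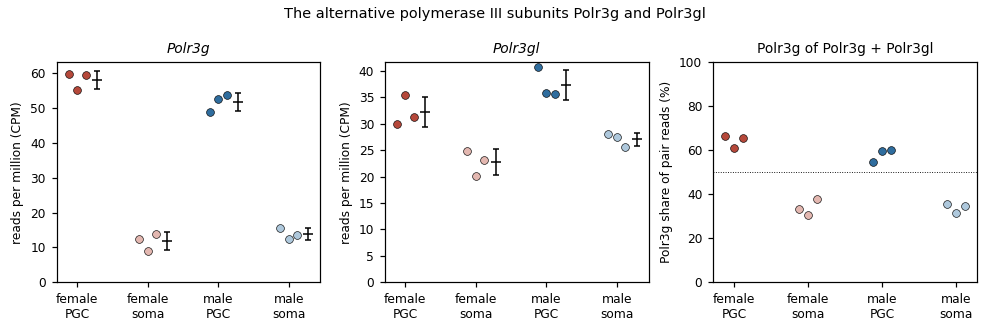
CPM of Polr3g (left) and Polr3gl (middle) and the percentage of their joint reads that are Polr3g (right) in each library of the 4 groups, with mean and SD of 3 libraries in the first 2 panels. Polr3g takes 54.6% to 66.5% of the pair in PGC libraries and 30.7% to 37.7% in soma libraries, on either side of the dotted line at equal shares.

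Most TFII factors rose in PGCs. Of 12 members, 8 were higher and 2 lower in females (median 0.79), and 10 were higher and 0 lower in males (median 1.02). Gtf2e2 encodes the smaller TFIIE subunit, which helps load TFIIH. It had 225, 216 and 211 CPM in female PGCs, against 46.6, 59.4 and 45.8 CPM in female soma. The male values were 202, 189 and 181 CPM in male PGCs, against 54.5, 44.1 and 44.9 CPM in male soma. It rose by 1.65 ± 0.085 in females (adjusted p = 5.63e-10, limma) and 1.66 ± 0.085 in males (adjusted p = 3.48e-10, limma), which was 2.13 and 2.03 in log2 CPM. Its partner Gtf2e1 rose by 1.33 ± 0.090 in females and 0.73 ± 0.090 in males.

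The TFIIF subunits, which escort polymerase II to the promoter, also rose in both sexes. Gtf2f1 rose by 0.85 ± 0.095 in females and 1.00 ± 0.095 in males, and Gtf2f2 by 1.11 ± 0.097 and 1.86 ± 0.097. Among the core subunits of TFIIH, the helicase-containing factor that opens DNA and also serves in repair, Gtf2h1, Gtf2h2 and Gtf2h4 rose by 0.74 to 0.95 in females and 0.77 to 1.06 in males. Gtf2h3 rose in males by 1.11 ± 0.091 and had a value of 0.081 ± 0.091 in females.

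Gtf2h5, the smallest TFIIH subunit, had the lowest mean difference of the class. It had 29.5, 34.4 and 30.9 CPM in female PGCs, against 40.2, 40.8 and 40.9 CPM in female soma. Its male levels were 29.9, 36.4 and 32.9 CPM in male PGCs, against 41.9, 36.0 and 38.8 CPM in male soma. It was called lower in females (-0.26 ± 0.084) and not in males (-0.086 ± 0.084, adjusted p = 0.354, limma), the female call was lost under median centring (-0.062), and the mean of both sexes, -0.18, was called lower but was 0.049 under median centring. Gtf2a2, the small TFIIA subunit, passed the test in neither sex (0.16 ± 0.12 in females and -0.25 ± 0.12 in males), although log2 CPM passed in males at -0.46. Of the 5 TFIIH genes under other symbols, 2 were higher and 0 lower in females, beside 38.7% and 42.3% of all genes. In males 4 were higher and 0 lower, beside 39.1% and 43.7% of all genes. Among these TFIIH genes the cyclin gene Ccnh rose by 1.22 ± 0.080 in females and 1.07 ± 0.080 in males, and the helicase gene Ercc3 by 0.42 ± 0.092 and 1.31 ± 0.092.

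The TFII-I family went the other way at equal read depth. Gtf2i, Gtf2ird1 and Gtf2ird2 share a repeated DNA-binding domain and, in spite of their names, act as sequence-specific regulators and not as parts of the basal complex. They lie next to each other on chromosome 5 between 134184019 and 134456716. All 3 were called lower in PGCs of both sexes, with a median of -1.08 in females and -1.25 in males, and the female call of Gtf2ird2 was lost under median centring (-0.25). Gtf2i averaged 195 ± 3.98 CPM in female PGCs, against 499.7 ± 42.4 CPM in female soma, and 181 ± 27.3 CPM in male PGCs, against 578 ± 17.8 CPM in male soma (mean ± SD, n = 3). Per cell the log2 difference of Gtf2i was 1.07 in females, negative after centring, and -0.058 in males.

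Gtf2ird1 had the largest fall of the 50 members. It had 7.70, 8.99 and 8.51 CPM in female PGCs, against 87.8, 73.8 and 93.2 CPM in female soma. Male libraries gave 28.7, 22.9 and 24.2 CPM in male PGCs, against 87.1, 89.5 and 91.5 CPM in male soma. PGC libraries lay below soma libraries, with log2 differences of -2.42 ± 0.095 in females (adjusted p = 6.52e-11, limma) and -1.30 ± 0.095 in males (adjusted p = 1.36e-08, limma), or -3.39 and -1.83 in log2 CPM. It was the only member called lower per cell in the values as deposited, at -0.90 ± 0.32 in females, with -0.20 ± 0.32 in males not passing. The female call was lost without female soma replicate 3 (-0.71). The male value was 0.13 without male soma replicate 3. Gtf2ird2 had 16.5, 16.6 and 17.8 CPM in female PGCs, against 23.3, 29.1 and 29.1 CPM in female soma. In males it had 15.6, 10.3 and 15.1 CPM in male PGCs, against 24.1, 24.1 and 26.8 CPM in male soma. PGC libraries lay below soma libraries, with log2 differences of -0.46 ± 0.12 in females and -0.52 ± 0.12 in males, and per cell it was higher by 1.75 ± 0.35 and 0.73 ± 0.35, which turned to -0.45 and -0.48 after centring on library medians. The male per-cell call was lost when 9 of the 12 libraries were left out in turn (0.54 to 0.73). Of the exon bases of Gtf2ird2, 6.58% overlap Ncf1 on the other strand, and the part of this overlap was not tested.

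Of the 7 TFIII factors, 3 were higher and 3 lower in females (median -0.093), near the shares of all genes given above (38.7% and 42.3%), and 4 were higher and 2 lower in males (median 0.38). The female median became 0.11 under median centring. Gtf3c3 encodes a TFIIIC subunit that contacts the next factor of the complex. It had 85.9, 86.5 and 85.5 CPM in female PGCs, against 36.5, 30.7 and 42.2 CPM in female soma. The male values were 120.1, 109.8 and 126 CPM in male PGCs, against 33.1, 33.3 and 35.2 CPM in male soma. It rose by 0.95 ± 0.085 in females and 1.48 ± 0.085 in males.

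Gtf3c6, a TFIIIC subunit of the promoter-binding complex, fell in females. It had 7.16, 7.28 and 8.22 CPM in female PGCs, against 32.2, 23.5 and 28.5 CPM in female soma. Its male levels were 21.1, 23.8 and 25.4 CPM in male PGCs, against 32.2, 30.8 and 30.2 CPM in male soma. The log2 difference was -1.23 ± 0.10 in females, -1.92 in log2 CPM, and -0.21 ± 0.10 in males (adjusted p = 0.0819, limma), where log2 CPM passed the test at -0.41. At equal read depth Gtf3c4 fell in both sexes, with log2 differences of -0.57 ± 0.11 in females and -0.80 ± 0.11 in males. Per cell its mean log2 value was 7.46 in female PGCs, against 5.75 in female soma. In males it was 6.98 against 6.51, with overlapping libraries. Both per-cell differences turned negative after centring on library medians. Gtf3a, the zinc finger factor of the 5S ribosomal RNA genes, rose by 0.52 ± 0.079 in females and 1.14 ± 0.079 in males, but 59.1% of its annotated exon bases overlap Mtif3 on the other strand. Gtf3c2 fell by 0.33 ± 0.070 in females and rose by 0.45 ± 0.070 in males, although the female call was lost under median centring (-0.13) and 38.9% of its exon bases overlap Gm29609 on the same strand. Gtf3c1, the largest subunit, rose by 0.60 ± 0.066 in females and fell by 0.21 ± 0.066 in males, and the male value turned to 0.035 under median centring. Gtf3c5 rose in males by 0.38 ± 0.095 and had a value of -0.093 ± 0.095 in females.

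Genes of the polymerase I and III machinery under other symbols gave a further view at equal read depth. Beside them, 38.7% of all genes were higher and 42.3% lower in females, and 39.1% higher and 43.7% lower in males. Of 10 polymerase I genes, 6 were higher and 1 lower in females (median 0.33), and 9 were higher and 1 lower in males (median 0.66). Taf1b, a subunit of the promoter selectivity factor, rose by 1.07 ± 0.084 in females and 1.10 ± 0.084 in males, and Rrn3, which makes polymerase I ready to initiate, by 1.01 ± 0.080 and 1.14 ± 0.080. The polymerase I subunit gene Znrd1 fell by 0.63 ± 0.12 in females and fell by 0.34 ± 0.12 in males, where the call was lost under median centring (-0.092). Per cell Znrd1 was higher, by 1.45 ± 0.37 in females and 0.999 ± 0.37 in males, which turned to -0.75 and -0.21 after centring. Of 11 polymerase III genes, 6 were higher and 2 lower in females (median 0.32), and 6 were higher and 0 lower in males (median 0.36). Snapc1, of the complex that activates small nuclear RNA genes, rose by 0.77 ± 0.10 in females and 1.09 ± 0.10 in males, and the TATA-binding protein gene Tbp by 0.59 ± 0.082 and 0.89 ± 0.082. Maf1, the repressor of polymerase III, was called lower in females (-0.23 ± 0.073), a call lost under median centring (-0.026), and rose in males (0.47 ± 0.073).

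Where a member differed between female and male PGCs, the direction was mainly lower in females. At equal read depth 31 of the 50 members were lower and 6 higher in female PGCs than in male PGCs, whereas over all genes 32.5% were lower and 32.8% higher. The count of higher members was 2 without male PGC replicate 1 or female PGC replicate 1. In soma 2 members were lower and 2 higher in females (11% and 13.3% of all genes). The median difference of the members was -0.31 in PGCs, against 0.013 for all genes, and -0.024 in soma, against 0.010. The difference of the PGC against soma contrast between sexes (female minus male) was itself tested and was negative for 26 members and positive for 3 (28.9% and 27.9% of all genes). These comparisons share libraries with those of PGC against soma and are not independent of them.

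**Figure D3:**
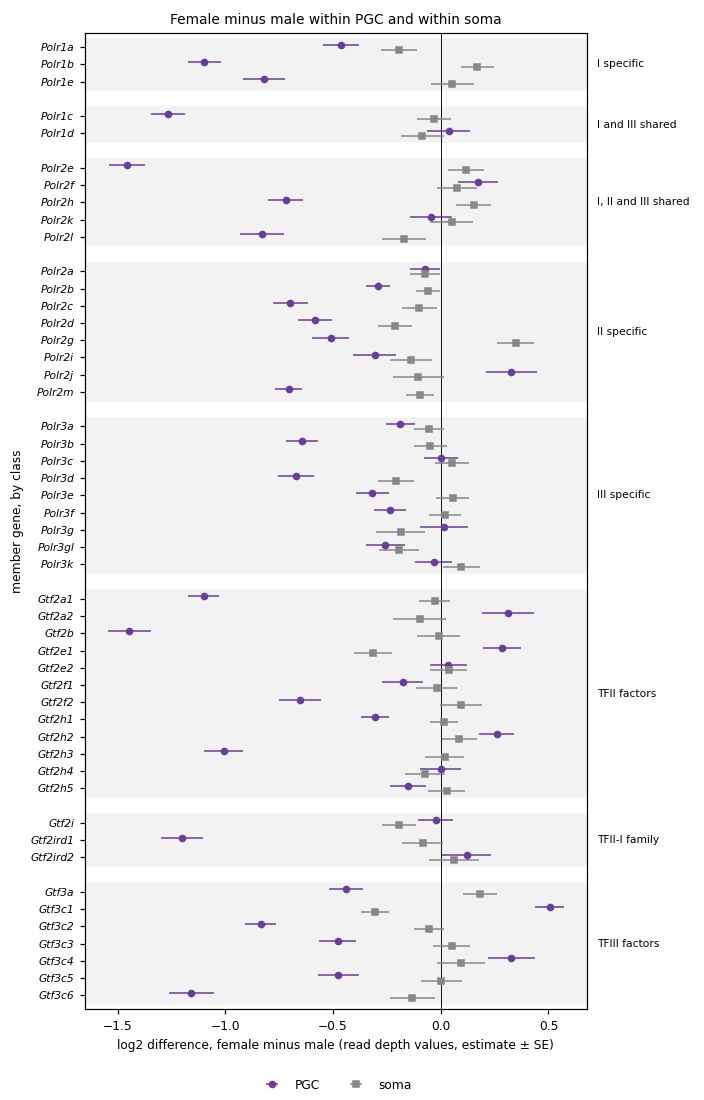
Log2 difference, female minus male, for 49 members at equal read depth, within PGCs (circles) and within soma (squares), with SE bars from the limma fit to 3 libraries per group. In PGCs the members run from -1.46 for Polr2e to 0.51 for Gtf3c1, and in soma from -0.31 to 0.35.

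By class, the 3 polymerase I subunits among the members were all lower in female than in male PGCs (median -0.82). Of 8 polymerase II subunits 6 were lower and 1 higher (median -0.41), and of 10 polymerase III subunits 7 were lower and 0 higher (median -0.25). Of the 5 subunits shared by all 3 enzymes 3 were lower (median -0.72), and of the TFIII factors 5 were lower and 2 higher (median -0.48). The TFII factors had 5 lower and 3 higher (median -0.16). Over all genes 32.5% were lower and 32.8% higher (median 0.013), and of these classes the TFII factors lay nearest to that. Polr2a, Polr3g, Gtf2e2 and Polr2k, which rose strongly in PGCs, had differences of -0.073 ± 0.070, 0.016 ± 0.11, 0.035 ± 0.085 and -0.045 ± 0.098 between the sexes, and none of them passed the test. The call of Polr3a was lost when any of male PGC replicates 2 and 3 or female PGC replicates 1 and 2 was left out, with values from -0.18 to -0.16.

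The largest sex difference of the contrast was that of Polr2e (chromosome 10, 80035949 to 80039795, minus strand), a subunit of all 3 polymerases. It had 62.1, 74.7 and 75.1 CPM in female PGCs, against 71.9, 68.0 and 77.3 CPM in female soma. Male libraries gave 216, 255 and 214 CPM in male PGCs, against 68.4, 62.3 and 61.2 CPM in male soma. Female PGCs overlapped with soma of both sexes, and male PGCs alone stood high. The contrast was -0.031 ± 0.083 in females and 1.54 ± 0.083 in males, and the difference between them was -1.57 ± 0.12 (adjusted p = 2.09e-07, limma). In log2 CPM it was -1.93.

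Gtf2b (chromosome 3, 142765045 to 142783606, plus strand) encodes TFIIB, the factor that bridges the TATA-binding protein and polymerase II. It had 23.6, 20.5 and 26.6 CPM in female PGCs, against 34.5, 36.5 and 32.5 CPM in female soma. In males it had 96.9, 69.9 and 79.3 CPM in male PGCs, against 32.2, 36.2 and 33.9 CPM in male soma. Relative to soma it was lower in female PGCs (-0.40 ± 0.10) and higher in male PGCs (1.04 ± 0.10), with a difference of -1.44 ± 0.14 (adjusted p = 2.22e-06, limma). The female call was lost under median centring (-0.20), and the difference between the sexes was not (-1.48). Per cell it rose by 1.87 ± 0.31 in females and 2.88 ± 0.31 in males, and the female value turned to -0.33 after centring on library medians.

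Gtf2a1, the large TFIIA subunit, had 78.9, 77.6 and 95.1 CPM in female PGCs, against 75.1, 72.1 and 67.8 CPM in female soma. The male values were 189.9, 198 and 208 CPM in male PGCs, against 77.6, 70.9 and 68.2 CPM in male soma. The male rise was 1.24 ± 0.072, and the female value of 0.17 ± 0.072 (adjusted p = 0.0416, limma) lost its call without female PGC replicate 3, female soma replicate 2 or 3, male PGC replicate 3 or male soma replicate 2 (0.10 to 0.17). The difference between the sexes was -1.07 ± 0.10. Polr1c, whose libraries are given above, had a difference of -1.24 ± 0.11, and Gtf2ird1 one of -1.12 ± 0.14. The 3 members with a positive difference were Polr2j (0.43 ± 0.17), Gtf2e1 (0.60 ± 0.13) and Gtf3c1 (0.81 ± 0.094), and they were singled out after their values were seen. The call of Polr2j was lost under median centring (0.39).

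**Figure D4:**
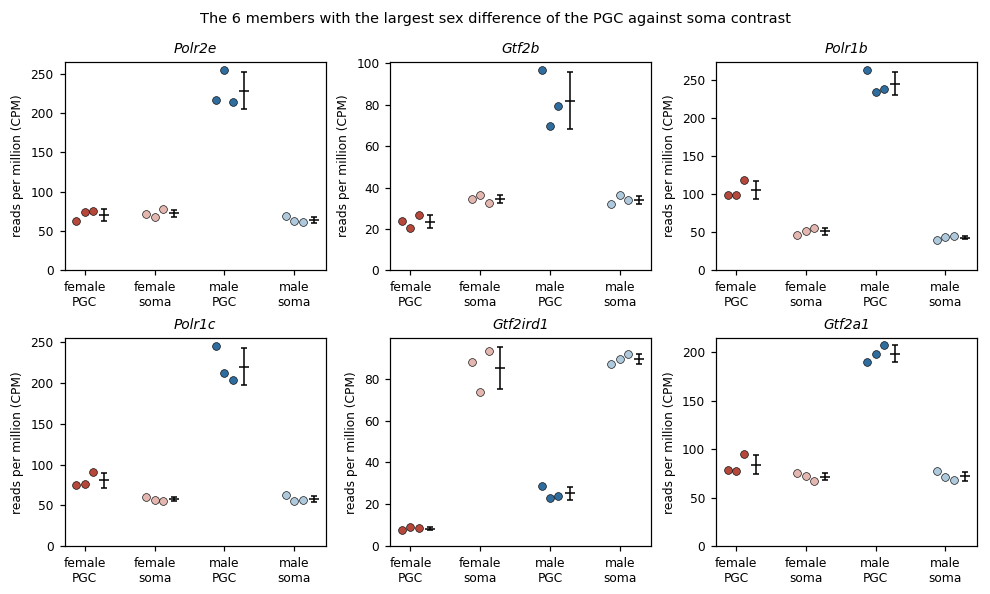
CPM in each of the 12 libraries for the 6 members with the largest sex difference of the PGC against soma contrast, with the mean and SD of 3 libraries beside the points. In all 6 panels male PGCs lie above female PGCs, and for Polr2e the female PGC points lie among the soma points.

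Per cell the sexes differed in another way. Between PGCs, 1 member was higher and 18 lower in females (24.3% and 17.7% of all genes), with Polr2e at -1.79 ± 0.29 and Gtf2b at -1.89 ± 0.31. The lower count was 10 without female PGC replicate 2, and the higher count ran from 0 to 4 as libraries were left out. Between somas, 0 members were higher and 46 lower in females (2.86% and 63.6% of all genes), with a median of -0.90 beside -0.86 for all genes. Without female soma replicate 1 or 2 the lower counts were 30 and 27. After centring 2 members were higher and 2 lower between somas (10.1% and 8.36% of all genes). The per-cell contrast of PGC against soma was larger in females for 13 members and smaller for 2 (42.8% and 5.16% of all genes), with a median of 0.55 beside 0.91. After centring on library medians this contrast was larger for 2 and smaller for 28 members (24.8% and 29.6% of all genes). Its member median was then -0.44, so its direction depends on the per-cell scale. Without male soma replicate 3 the counts were 13 larger and 7 smaller. Without male PGC replicate 1, 2 or 3, female PGC replicate 1 or 3, or female soma replicate 1 or 2, between 6 and 8 members were larger.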

How the data were processed

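RNA was sequenced from 12 libraries of sorted PGCs and soma, with control RNA added in proportion to cell number, per the labels' protocols. The submitters' processing notes name the mm10 build, limma 3.28.14, edgeR 3.14.0, DESeq2 1.12.3, HTSeq 0.6.1p1, TopHat2 2.0.9 and Trim Galore 0.4.0, and R 3.3.0, without the role of each, and no strand setting was stated. The authors deposited 2 tables of log2 values for 12845 genes, one normalized to cell number and one to read depth. The cell number values equal log2 of reads plus 0.5 divided by a library constant, and whole reads were recovered for 100% of values within 0.001 reads. CPM, RPKM and the Polr3g to Polr3gl ratio were computed from these reads, with exon lengths from GENCODE vM21. No source used here gives the transform behind the read depth table, and it shrinks differences of low genes.

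The deposited log2 values were fitted in R 4.3.3 with limma 3.58.1, using 4 group means over 12 libraries and a variance that follows intensity, and p-values were adjusted by Benjamini-Hochberg over all 12845 genes (threshold 0.05). The script was tested on simulated data. The ratio was tested by exact permutation within sex. Voom on the recovered reads, median centring, quantile normalization, a filter on the lowest 25% of genes, other variance models, library weights, a replicate term and leaving out each library were tried as alternatives. Values in every library are given for the catalytic pair of each polymerase, for Polr3g and Polr3gl, for the highest and lowest member of each class by the mean difference, and for the 6 members with the largest sex difference. One member enters the counts and sums but is not reported here by itself. The members and gene lists were chosen with earlier results of these data known. Counting error is larger in the shallower libraries, of which female PGC replicate 2 has the fewest reads. Tables and plots were made with Python 3.11.15, pandas 2.3.3, numpy 2.4.6 and matplotlib 3.10.9.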

Additional observations from a re-analysis of the deposited data

Results flagged for a closer look

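The difference between PGC and soma itself differed between the sexes for 12 of the 22 members described with values in every library, by limma's test of that difference at equal read depth (female minus male, log2, adjusted p under 0.05). Over all genes 27.9% passed this test as higher and 28.9% as lower, and 6 of the 22 were named for their large sex difference, so the count describes no property of the members. It was -1.57 for Polr2e, -1.44 for Gtf2b, -1.27 for Polr1b, -1.24 for Polr1c, -1.12 for Gtf2ird1, -1.07 for Gtf2a1 and -1.03 for Gtf3c6. Smaller values were found for Polr2l (-0.662), Polr2m (-0.61), Polr3b (-0.597), Gtf3c3 (-0.529) and Polr2b (-0.235). The call for Polr2b was lost without male PGC replicate 1 (-0.20) or female PGC replicate 2 (-0.22).

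Per cell, the same test passed for Polr2e (-1.07) and Gtf2b (-1.01) with a smaller rise in females, and for Polr3g (1.22), Polr2a (0.926) and Gtf2e2 (0.916) with a larger one. The median of all genes in this per-cell comparison was 0.91, with 42.8% called higher and 5.16% lower. Each of these 5 calls was lost in several of the fits that left out 1 library, with values between -1.12 and -0.82 for Gtf2b, between -1.04 and -0.89 for Polr2e, between 0.60 and 0.98 for Polr2a, between 0.83 and 0.98 for Gtf2e2 and between 0.95 and 1.23 for Polr3g.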

How the results depend on the processing

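At equal read depth, the counts of members higher in PGCs stayed within 1.5 times under all alternatives run, and the Polr3g to Polr3gl difference kept its direction and its call throughout (1.18 to 1.69). The members lower in females numbered 6 under median centring, beside 35.6% of all genes, and 7 under quantile normalization. The mean difference of Gtf2h5 was 0.049 under centring. With array weights 5 members had a positive difference between the sexes' contrasts. Between somas 1 member was higher in females by voom and 6 were lower with array weights. Leaving out 1 library gave 2 to 6 members higher in female than in male PGCs, and 1 to 2 higher and 1 to 6 lower in female than in male soma, with 6 without female soma replicate 3.

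Per-cell counts depended on the scale. Under median centring and quantile normalization the lower members numbered 8 and 7 in females, 5 and 6 in males, and 7 and 7 as the mean of both sexes. Of all genes, centring gave 36.4%, 37.3% and 39.3% lower in these 3 comparisons. The per-cell contrast was larger in females for 2 and 2 members and smaller for 28 and 24. Between PGCs 5 and 5 members were higher in females, with 31 lower under centring (all genes, centred: 31.4% higher, 34.7% lower). Between somas 2 and 2 were higher and 2 and 2 lower. Array weights gave 23 larger and 10 smaller contrasts and 6 members higher in female PGCs, and a fit with no intensity trend gave 1 smaller contrast and 0 members higher in female PGCs. Leaving out 1 library gave 6 to 15 larger and 0 to 7 smaller contrasts, 0 to 4 members higher and 10 to 24 lower in female PGCs, 27 to 48 lower in female soma, and 0 to 1 lower in PGCs than in soma, in females and as the mean of both sexes, with 0 without female soma replicate 3. The smaller contrasts numbered 7 without male soma replicate 3. Under the alternatives, per cell and at equal read depth, shares of all genes are given for centring only. A change of a count under another alternative is therefore not read as one of the members alone.

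Per-cell differences that turned negative are given under centring and then quantile normalization. In females they were -0.33 and -0.26 for Gtf2b, -0.14 and -0.18 for Gtf2h5, -0.45 and -0.24 for Gtf2ird2, -1.65 and -1.35 for Gtf3c6 (0.55 as deposited, not called), -0.28 and -0.22 for Polr2l, -0.94 and -1.38 for Polr2m, -0.76 and -0.88 for Polr3k, and -0.071 under quantile normalization for Polr2e. In males they were -0.48 and -0.17 for Gtf2ird2, -0.093 and -0.63 for Polr2m, and -0.52 and -0.61 for Polr3k. As the mean of both sexes they were -0.46 and -0.20 for Gtf2ird2, -0.82 and -0.63 for Gtf3c6, -0.52 and -1.01 for Polr2m, -0.64 and -0.74 for Polr3k, and -0.040 under quantile normalization for Gtf2h5. The sex difference of the contrast was -0.074 for Gtf2e2 and -0.064 for Polr2a under centring. Both alternatives remove the shift common to all genes by construction.

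Nothing in the labels says whether PGC and soma libraries of equal replicate number came from the same gonads. Deviations of same-numbered PGC and soma libraries correlated between -0.0715 and 0.0715. Sorted fractions of the same gonads need not deviate alike, so these values cannot settle the pairing. With the replicate block 38 members were higher and 8 lower at equal read depth as the mean of both sexes, and the female call of Gtf2a1 was lost. Values of the 22 members described in every library and counts over all genes were tallied together under the alternatives. Of these, 4571 stayed the same, 120 lost a call, 53 gained one, 127 moved and 31 reversed. For a single member, the same means that direction and call were kept. A change of direction is tallied as reversed where the value was called and as moved where it was not. For a count over all genes, the same means within the fold limit given above for counts, and moved means outside it. The counts of members and the Polr3g to Polr3gl ratio were tallied apart, with 429 the same and 67 moved.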
